A study of Mus musculus with 10 samples.

Results

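The interleukin 1 family and TNF were followed through 8 genes: the ligand genes Il1a, Il1b, Il18 and Il33, the antagonist gene Il1rn, the receptor genes Il1r1 and Il1r2, and Tnf. They were taken by symbol from the tables of mouse intestinal tissue, and all 8 were found among the 19456 genes listed in at least 1 library. All 8 also passed the low-count filter and are among the 14072 genes tested. Il1a and Il1r2, with at most 3.3 and 10 expected counts in an untreated library, passed it through the DSS libraries. Il1r2 was listed in 8 of the 10 libraries, and the other 7 genes in all 10.

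The IL-1 alpha, IL-1 beta, IL-18 and IL-33 proteins are cytokines that lack a classical secretion signal. IL-1 beta and IL-18 are made as precursors that caspase-1 cuts inside inflammasomes, while IL-1 alpha and IL-33 act as alarm signals when cells are damaged. IL-1 alpha and IL-1 beta signal through the type 1 receptor IL1R1, the receptor antagonist IL1RN occupies that receptor without signalling, and the decoy receptor IL1R2 binds IL-1 but does not signal. TNF is made as a membrane protein, is shed by the protease ADAM17 and acts through its own receptors TNFR1 and TNFR2. Both cytokine systems activate NF-kappaB, and in the gut both are known from colitis. IL-18 is made largely by the intestinal epithelium, and IL-1 beta and TNF largely by myeloid cells.

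The libraries are intestinal tissue of C57BL/6 mice. Untreated wild type mice (WT) gave 3 libraries and untreated ITGB6-overexpressing transgenic mice (TG) gave 3. WT and TG mice given 2.5% dextran sulfate sodium (DSS) by mouth, which the series describes as a model of intestinal fibrosis, gave 2 libraries each. DSS is a polysaccharide that injures the gut lining, and ITGB6 is the beta subunit of the integrin alpha v beta 6, which activates TGF-beta. The labels do not name the promoter of the transgene, the number of founder lines, the age of the mice or the time of collection. They do not say that the libraries come from separate animals either. The p-values therefore cover the library-to-library spread alone, which may be technical.

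The transgene matched the labels: the tables' human ITGB6 entry read 0.117 to 1.13 CPM (counts scaled to library size) in WT libraries. In TG it read 3632, 3853 and 3913 CPM untreated, and 2453 and 2201 CPM after DSS. Transgene level thus differed between untreated and DSS libraries of TG, and its part in the results was not tested. Library totals ran from 15393859 to 18284704 expected counts. Epithelial markers summed to 14945 to 20645 CPM, with Krt8, an epithelial keratin, at 5432 to 8801 CPM. Sex differs with treatment: Xist, which is transcribed from the inactive X chromosome, stood at 0 to 0.417 CPM in untreated libraries and 307 to 739 CPM after DSS, while Y-linked Kdm5d stood at 26.6 to 44.2 CPM untreated and 0 CPM after DSS. In every comparison of DSS with untreated tissue, DSS and sex cannot be told apart. In untreated TG, 2 libraries stand apart. TG untreated 1 held the pan-leukocyte gene Ptprc at 8.94 CPM, against 56.9 and 79.5 CPM in TG untreated 2 and 3. It also listed the fewest genes of the 10 libraries (16391) and was low in some genes that do not mark leukocytes. Y-linked Ddx3y stood there at 14.2 CPM, against 42.1 to 46.4 CPM in the other untreated libraries. The kinase gene Chuk stood at 38.4 CPM against 80.4 to 87.4 CPM. TG untreated 3 held 5 B cell markers at a summed 40.4 CPM, against 1.37 to 4.94 CPM in the other 9 libraries. In bulk tissue, fewer cells of a type and less RNA per cell cannot be told apart.

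In the mouse genome (RefSeq, GRCm38.p6), Il1a (gene ID 16175) lies at chr2:129299609-129310186 and Il1b (16176) at chr2:129364569-129371164, both on the minus strand. Il1rn (16181) lies apart from them on the plus strand of the same chromosome, at chr2:24336860-24351491. The receptor genes are neighbours on chromosome 1, Il1r2 (16178) at chr1:40084692-40125230 and Il1r1 (16177) at chr1:40222480-40316201, both on the plus strand. Il18 (16173) lies at chr9:50554700-50581841 and Il33 (77125) at chr19:29925113-29960718, both on the plus strand, and Tnf (21926) at chr17:35199367-35202007 on the minus strand. In the GENCODE annotation, exons of Il1a overlap the opposite-strand transcript Gm14023 and exons of Il1b overlap the antisense gene Il1bos. The sources used here do not say whether counting used strand, so reads of those pairs cannot be told apart, and the expected counts of Il1a are not whole numbers.

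The 250 bases before the annotated start are shown for Il1a, Il1b, Tnf and Il18, the cytokine genes that rose with DSS in both genotypes. The windows are chr2:129309973-129310222 (minus strand), chr2:129371140-129371389 (minus), chr17:35202008-35202257 (minus) and chr9:50554450-50554699 (plus), from RefSeq on GRCm38.p6, written 5′ to 3′ along the gene. In Il1a and Il1b the annotated start used lies inside the gene span given above, so these 2 windows overlap that span. Capitals mark TATAAA, the core of the TATA box.
Il1a: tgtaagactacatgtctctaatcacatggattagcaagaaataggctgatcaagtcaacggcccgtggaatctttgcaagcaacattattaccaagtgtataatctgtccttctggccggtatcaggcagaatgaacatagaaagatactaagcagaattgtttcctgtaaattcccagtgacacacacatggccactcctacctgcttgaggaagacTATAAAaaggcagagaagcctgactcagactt
Il1b: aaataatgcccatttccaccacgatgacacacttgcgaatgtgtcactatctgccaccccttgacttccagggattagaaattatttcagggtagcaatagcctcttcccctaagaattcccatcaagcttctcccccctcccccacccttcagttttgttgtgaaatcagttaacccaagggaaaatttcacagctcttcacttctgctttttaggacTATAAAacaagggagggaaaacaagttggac
Tnf: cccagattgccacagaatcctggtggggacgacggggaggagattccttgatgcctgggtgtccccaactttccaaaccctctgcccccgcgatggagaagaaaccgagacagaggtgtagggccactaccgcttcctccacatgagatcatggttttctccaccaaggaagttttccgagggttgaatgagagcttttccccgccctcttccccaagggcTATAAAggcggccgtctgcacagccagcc
Il18: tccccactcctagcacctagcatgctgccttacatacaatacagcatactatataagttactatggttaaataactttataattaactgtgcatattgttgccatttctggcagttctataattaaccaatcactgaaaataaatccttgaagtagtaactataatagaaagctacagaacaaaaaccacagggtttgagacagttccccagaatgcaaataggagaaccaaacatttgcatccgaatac
Counting back from the annotated start, TATAAA lies at -32 to -27 in Il1a, -31 to -26 in Il1b and -29 to -24 in Tnf. The Il18 window holds no TATAAA. In Il33 the letters lie at -29 to -24 from the second annotated start and at -203 to -198 from the first. Of 32841 annotated start windows of this length, 7.59% hold TATAAA on the gene's strand. AP-1, C/EBP and NF-kappaB motifs were searched on both strands. The AP-1 letters TGANTCA, found in 6.75% of windows, occur at -12 to -6 in Il1a and at -141 to -135 from the first start of Il1rn. The C/EBP letters TTNNGNAA are in 36.9% of windows and occur in windows of Il1a, Il1b, Il1rn, Il1r1, Il33 and Tnf. The NF-kappaB consensus is in 7.25% of windows and, among the 12 windows of the 8 genes, occurs in the second start window of Il1r1. A match is a run of letters and does not show that a factor binds there. A window without a match does not show that the gene lacks sites, since other letters and bases outside the 250 were not searched.

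Per length, Il18 was the most abundant of the 8 genes in all 4 groups and Il1rn the next. FPKM, the deposited level scaled to gene length and library size, put Il18 at 52.4 ± 7.48 (mean ± SD, n = 3) in untreated WT, Il1rn at 25.3 ± 3.29, Il1r1 at 4.71 ± 0.689 and Tnf at 1.95 ± 0.485. These 4 did not overlap one another between libraries. Il1b (0.513 ± 0.2 FPKM) overlapped Il33 (0.287 ± 0.0929), and Il1a (0.06 ± 0.0173) overlapped Il1r2 (0.0467 ± 0.0451). In untreated TG the order was the same down to Il33, and from Il1b through Il33 and Il1r2 to Il1a each gene overlapped the next. After DSS in WT, Il18 (146 ± 27.4 FPKM, n = 2) and Il1rn (42.0 ± 9.19) led again, but Il1b (13.2 ± 2.6) and Tnf (12.4 ± 0.453), which overlapped each other, now stood above Il1r1 (3.57 ± 1.03). In TG after DSS, Il1b (8.66 ± 2.52 FPKM) and Tnf (8.27 ± 2.03) also overlapped and stood above Il1r1 (2.81 ± 0.311).

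**Figure D1:**
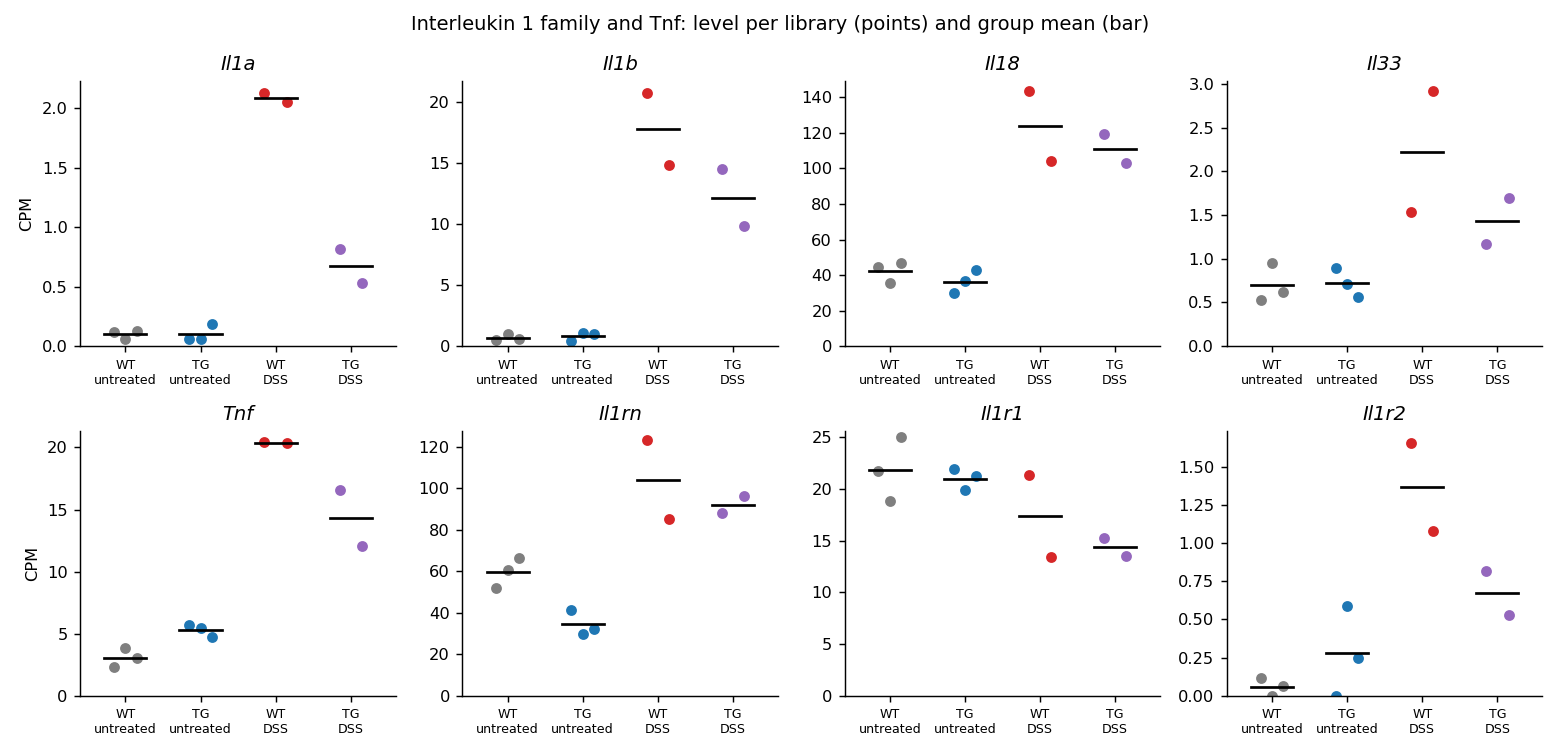
Level of each of the 8 genes in CPM (vertical axis, from 0, scaled per gene) in the 10 libraries, by group. Points are libraries and bars are group means. For Il1b, Il18 and Tnf all 4 DSS libraries stand above all 6 untreated ones, while the Il1r1 libraries of WT overlap.

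In WT tissue 7 of the 8 genes rose with DSS, Il1b, Il1a, Il1r2 and Tnf the most, and Il1r1 did not pass. In TG tissue 5 rose: Il1b, Il1a, Il18, Tnf and Il1rn. A gene passed where the edgeR quasi-likelihood test gave a Benjamini-Hochberg adjusted p under 0.05 over all 14072 genes. By that rule 10.2% of all genes were higher in WT and 3.33% in TG (19.8 and 5.48% in either direction). The DSS libraries were all above the untreated ones in 7 of the 8 genes in WT and 6 in TG, and all below them in 0 and 1. Over all genes this was so for 28.4% higher and 29.1% lower in WT, and 19.1% higher and 16.0% lower in TG. The median log2 fold change of the 8 genes was 2.2 in WT and 1.43 in TG, beside 0.00206 and 0.0139 over all genes tested. In these counts and medians Il1a and Il1r2 could hardly have been lower, since they passed the low-count filter through the DSS libraries.

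Il1b, which encodes IL-1 beta, stood at 0.469, 0.952 and 0.554 CPM in untreated WT and at 20.7 and 14.8 CPM in WT after DSS. In TG it stood at 0.417, 1.06 and 0.993 CPM untreated and at 14.5 and 9.84 CPM after DSS. Every DSS library was above every untreated one in both genotypes. The fold was 26.6 in WT (log2 4.74 ± 0.37, SE, adjusted p = 7.23e-05) and 14.6 in TG (3.87 ± 0.36, adjusted p = 0.000324). Both calls held in all 19 alternative fits.

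Il1a, which encodes IL-1 alpha, was barely counted in untreated tissue, with 5.61 expected counts over the 3 WT libraries and 5.98 over the 3 TG libraries. Its levels were 0.117, 0.0595 and 0.123 CPM in untreated WT and 2.13 and 2.05 CPM in WT after DSS. TG read 0.0596, 0.0591 and 0.186 CPM untreated, and 0.82 and 0.527 CPM after DSS. All 4 DSS libraries were above all 6 untreated ones. The ratio of pooled counts was 20.9 in WT (95% counting interval 8.57 to 66.3, adjusted p = 0.000381 by edgeR) and 6.71 in TG (2.5 to 22.6, adjusted p = 0.0193). The TG call ended without TG untreated 2 (0.0624), TG DSS 1 (0.157) or TG DSS 2 (0.0683), and the TG log2 fold change of 2.66 became 3.35 without TG untreated 3.

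Il18, which encodes the epithelial cytokine IL-18, was the most highly counted ligand. It stood at 44.7, 35.6 and 46.7 CPM in untreated WT and at 144 and 104 CPM in WT after DSS. TG read 29.7, 36.5 and 42.8 CPM untreated, and 119 and 103 CPM after DSS. The DSS libraries were again all above the untreated ones. The folds were 2.92 in WT (log2 1.55 ± 0.19, adjusted p = 0.000713) and 3.06 in TG (1.61 ± 0.19, adjusted p = 0.0012). Il18 kept its calls in all 19 alternative fits.

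Il33, which encodes the alarmin IL-33, was counted 9 to 16 times in each untreated library and 20 to 54 times in each DSS library. It stood at 0.528, 0.952 and 0.615 CPM in untreated WT and at 1.54 and 2.92 CPM in WT after DSS, and it passed there (3.18-fold, log2 1.67 ± 0.40, adjusted p = 0.0173). The call ended without WT untreated 1 (0.0662), WT untreated 3 (0.0615) or WT DSS 2 (0.198). TG read 0.894, 0.709 and 0.558 CPM untreated, and 1.17 and 1.70 CPM after DSS. The TG groups did not overlap either, but the gene did not pass (log2 0.98, 95% interval 0.07 to 1.90, adjusted p = 0.214).

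Tnf stood at 2.29, 3.81 and 3.08 CPM in untreated WT and at 20.4 and 20.4 CPM in WT after DSS. TG read 5.72, 5.49 and 4.71 CPM untreated, and 16.6 and 12.1 CPM after DSS. All 4 DSS libraries were above all 6 untreated ones, with the TG libraries above the WT ones when untreated and below them after DSS. The folds were 6.66 in WT (log2 2.74 ± 0.22, adjusted p = 9.01e-05) and 2.69 in TG (1.43 ± 0.22, adjusted p = 0.00466). The TG call ended without TG DSS 1 (0.0589).

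Il1rn, the antagonist gene, stood at 52.1, 60.7 and 66.5 CPM in untreated WT and at 123 and 85.2 CPM in WT after DSS. TG read 41.4, 29.6 and 32.2 CPM untreated, and 88.0 and 96.3 CPM after DSS. The groups did not overlap within either genotype. The folds were 1.74 in WT (log2 0.80 ± 0.19, adjusted p = 0.0161) and 2.68 in TG (1.42 ± 0.19, adjusted p = 0.00224). The WT call ended without WT untreated 1 (0.0621) or WT DSS 1, where the log2 value was 0.51 (0.109).

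The receptor genes differed from each other. Il1r1, the signalling receptor, stood at 21.7, 18.8 and 25 CPM in untreated WT, 21.4 and 13.4 CPM in WT after DSS, 21.9, 19.8 and 21.2 CPM in untreated TG, and 15.3 and 13.5 CPM in TG after DSS. The WT groups overlapped and both TG libraries after DSS were below the untreated ones. Neither difference passed (log2 -0.33, 95% interval -0.77 to 0.11, adjusted p = 0.281 in WT, and -0.55, -0.995 to -0.0968, adjusted p = 0.159 in TG). The WT value depends on which DSS library is kept: Il1r1 was lower without WT DSS 1 (-0.70, adjusted p = 0.0356) and at -0.033 without WT DSS 2 (adjusted p = 0.95).

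Il1r2, the decoy receptor, had 2, 0 and 1 counts in untreated WT and 28 and 20 in WT after DSS. TG had 0, 10 and 4 counts untreated, and 14 and 9 after DSS. The WT groups did not overlap, while TG untreated 2, with 10 counts, lay between the TG libraries after DSS. The pooled ratio was 22.6 in WT (95% counting interval 7.29 to 114, adjusted p = 0.012 by edgeR), on 3 counts in untreated WT. In TG it was 2.4 (1.18 to 5.04, adjusted p = 0.442), so the gene did not pass there. Counting intervals cover counting error only.

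On the scale of log2(FPKM + 1), which understates the change of genes of low level, limma gave smaller values for the low members. In WT, Il1b was 3.23, Il1a 0.97, Il1r2 0.94 and Il33 0.53, and in TG, Il1b was 2.57 and Il1a 0.33. These members passed there too.

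**Figure D2:**
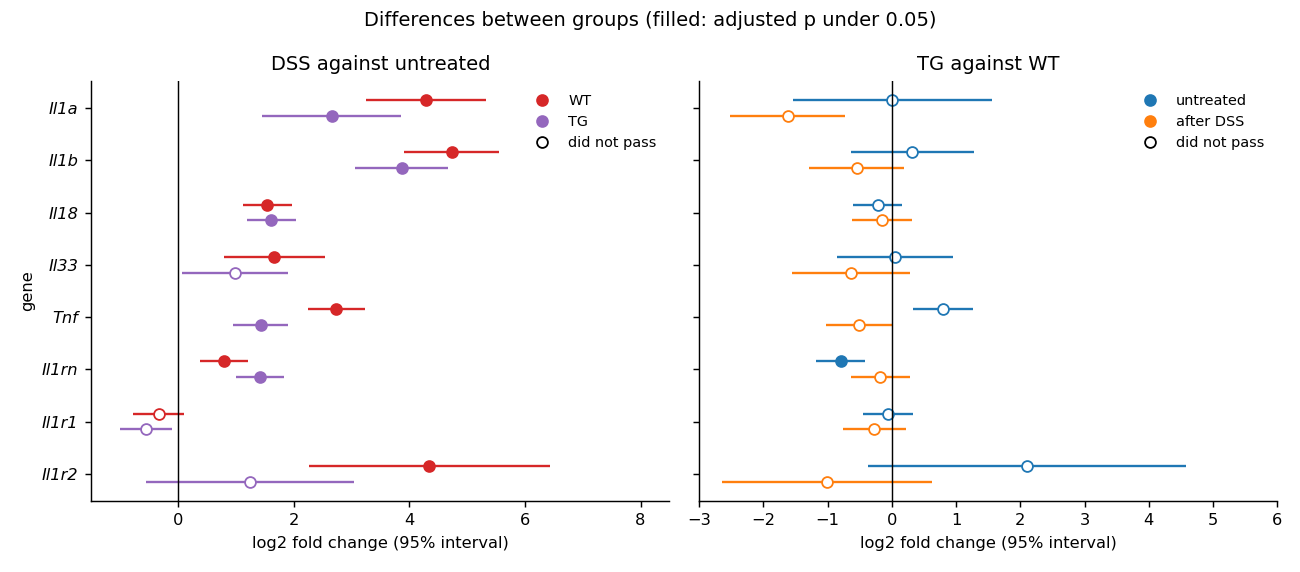
Log2 fold change (horizontal axis) with its 95% interval for each of the 8 genes, DSS against untreated in WT and TG on the left and TG against WT untreated and after DSS on the right. Filled points passed at an adjusted p under 0.05 and open points did not: 7 passed in WT and 5 in TG on the left, and on the right only Il1rn in untreated tissue.

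The balance of antagonist and ligand transcripts per length differed between untreated and DSS libraries. The ratio of Il1rn to Il1b FPKM was 60.7, 34.6 and 64.5 in untreated WT and 3.21 and 3.11 in WT after DSS. In TG it was 54.1, 15 and 17.4 untreated, and 3.28 and 5.29 after DSS. Antagonist transcript exceeded Il1b transcript in every library, and all 6 untreated ratios were above all 4 DSS ratios. In untreated TG the ratio of library 1, with 7 Il1b counts, stood apart from those of libraries 2 and 3. Il18 made up 97.4 to 98.8% of the summed FPKM of the 4 ligands in untreated libraries and 90.3 to 93.6% after DSS, while Il1b made up 0.649 to 1.80% and 5.65 to 8.28%. The ratio of Tnf to Il1b FPKM ran from 3.27 to 11.2 in untreated libraries and from 0.802 to 1.12 after DSS. These ratios are descriptions with no test, and those of untreated libraries rest on 7 to 18 counts of Il1b each.

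**Figure D3:**
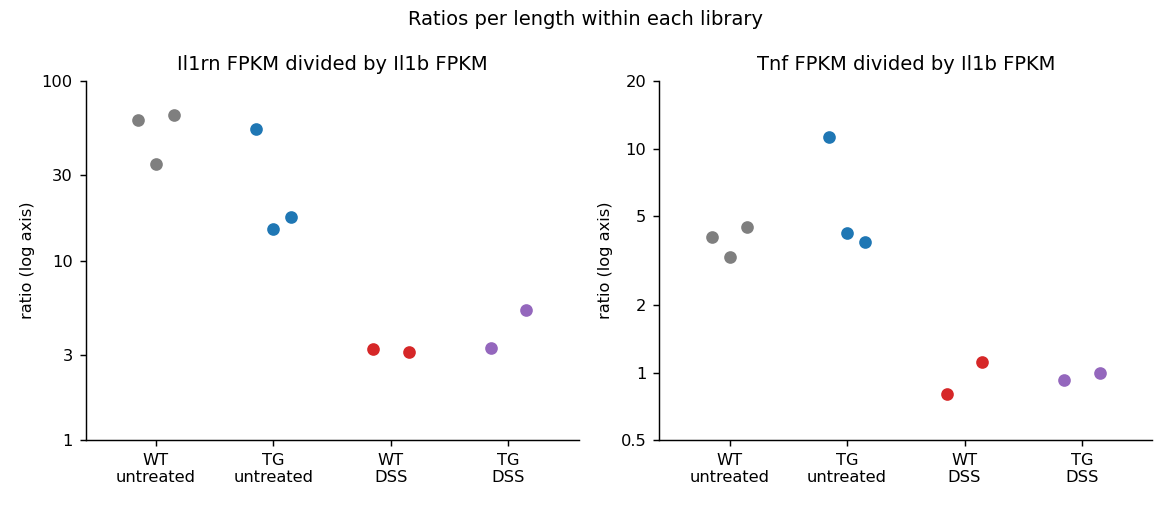
Ratio of Il1rn to Il1b FPKM (left) and of Tnf to Il1b FPKM (right) in each library, on log axes, by group. Each point is a library. Both ratios are lower in all 4 DSS libraries than in all 6 untreated ones, for Il1rn over Il1b 3.11 to 5.29 against 15 to 64.5.

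Genes of leukocytes moved differently from one another between the same groups. Of 13 monocyte and macrophage markers tested (14 listed), 5 were higher with DSS in WT and 3 in TG, and the list summed to 51.2 to 71.7 CPM in untreated WT, 68.6 to 72.1 in untreated TG, 163 to 189 in WT after DSS and 136 to 150 in TG after DSS. Most of that sum was Cd14, at 30.9 to 53.3 CPM untreated and 80.4 to 124 CPM after DSS. Of 8 neutrophil markers tested (11 of 12 listed), 8 were higher in WT and 6 higher and 1 lower in TG. Over all genes 10.2% were higher and 9.62% lower in WT, and 3.33 and 2.15% in TG. S100a8, S100a9, Ltf and Retnlg, at most 0.714 CPM in untreated libraries, passed the low-count filter through the DSS libraries. They could hardly have been called lower. The 11 listed markers summed to 217 to 259 CPM in untreated WT, 402 to 515 in untreated TG, 476 to 481 in WT after DSS and 428 to 529 in TG after DSS. Cd177, the most abundant of them, stood at 155 to 180 CPM in untreated WT, 365 to 475 in untreated TG and 234 to 331 after DSS. Ly6g, the next, went the other way between untreated genotypes, at 55.7 to 72.1 CPM in WT and 23.5 to 33.6 in TG. After DSS it stood at 103 to 120 CPM in WT and 159 to 235 in TG. The calprotectin gene S100a8 was at 0 CPM in all 3 untreated WT libraries, 0.118 to 0.179 in untreated TG, and 3.57 to 6.68 after DSS. Mmp8 was at 0 in all untreated libraries and Mpo was not listed. The 4 pan-leukocyte markers instead summed to 166 to 324 CPM in untreated WT, 54.3 to 209 in untreated TG, 58.2 to 73.0 in WT after DSS and 59.7 to 63.9 in TG after DSS, with 2 of 4 lower in WT. The part of these markers in the results for Il1b, Tnf and the other members was not tested.

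In untreated tissue, TG differed from WT in 1 of the 8 genes by edgeR: Il1rn was lower. By that rule 1.44% of all genes were lower and 2.26% higher (3.70% in either direction). The Il1rn values were 41.4, 29.6 and 32.2 CPM in TG and 52.1, 60.7 and 66.5 in WT, without overlap, and Il1rn was 1.74-fold lower (log2 -0.80 ± 0.17, SE, adjusted p = 0.0344 by edgeR). The adjusted p over 19 alternatives ran from 0.00141 to 0.122. The call ended without WT untreated 1 (0.0644), 2 (0.112) or 3 (0.122), TG untreated 2 (0.106) or 3 (0.093), or TG DSS 1 (0.0589) or 2 (0.0592), and it held without TG untreated 1 (0.0129). Of the 2 libraries that stand apart, leaving out TG untreated 1 thus kept the call and leaving out TG untreated 3 ended it. Without TG untreated 1, 434 of all genes were higher and 296 lower in untreated TG, against 318 and 202 with all libraries. With DSS in TG the numbers were 774 and 903 against 468 and 303, and in the interaction 219 and 166 against 74 and 45.

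Tnf was at 5.72, 5.49 and 4.71 CPM in untreated TG, above all 3 WT values of 2.29, 3.81 and 3.08 CPM. It did not pass in edgeR (1.74-fold, log2 0.80 ± 0.21, adjusted p = 0.0724), and it passed in DESeq2 (adjusted p = 0.0227). Of 9 fibroblast markers, 3 were higher in untreated TG, where the list summed to 68.7 to 171 CPM against 82.6 to 131 in WT, and the collagen gene Col1a1 stood at 11 to 28.4 CPM against 4.05 to 8.8. Of 8 epithelial markers 1 was higher, and of the neutrophil markers 1 was higher and 1 lower. The part of these markers in the values of Il1rn and Tnf was not tested. Groups without overlap were common in this comparison: TG was above WT in 16.7% of all genes and below it in 15.4%. The other 6 genes overlapped between the genotypes, with 95% intervals of the log2 fold change of -0.61 to 0.17 for Il18, -0.45 to 0.34 for Il1r1, -0.64 to 1.28 for Il1b and -0.85 to 0.95 for Il33. Il1a had 5 rounded counts in each genotype (ratio 1.01, 95% counting interval 0.231 to 4.37). Il1r2 had 3 counts in WT and 14 in TG (ratio 4.69, 1.31 to 25.5), of which TG untreated 2 gave 10, and did not pass (adjusted p = 0.312).

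After DSS, none of the 8 genes passed between TG and WT. The edgeR count was 0, with 1 gene at an unadjusted p under 0.05. It was 0 in DESeq2 and 1, Il1a, in limma on log2(FPKM + 1). By edgeR 0.185% of all genes passed in either direction (0.178% higher and 0.00711% lower). Over all genes, 189 were higher and 59 lower in DESeq2, and 7 and 3 in limma. DESeq2 gave Il1a and Il1r2 no adjusted p here. All 8 log2 fold changes were below 0 (median -0.53), as were 52.0% of those of all genes. Without WT DSS 1 the signs of Il1rn (0.11), Il1r1 (0.10) and Il18 (0.10) turned. In 4 of the 8 genes, Il1a, Il1b, Il1r2 and Tnf, both TG libraries were below both WT libraries, which was so for 21.2% of all genes, while 22.0% lay the other way. For Il1a, at 0.82 and 0.527 CPM in TG and 2.13 and 2.05 CPM in WT, the pooled ratio was 0.323 (95% counting interval 0.193 to 0.521), and the log2 fold change was -1.62 (adjusted p = 0.184). In limma on log2(FPKM + 1) it was -0.64 (adjusted p = 0.0266), and over its 18 alternatives the adjusted p ran from 0.0114 to 0.787. For Tnf the log2 fold change was -0.51 (95% interval -1.02 to 0.00, adjusted p = 0.449) and for Il1b -0.54 (-1.28 to 0.20, adjusted p = 0.596). For Il18 it was -0.15 (-0.62 to 0.31) and for Il1rn -0.18 (-0.64 to 0.28).

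Whether the response to DSS differed between the genotypes was tested as an interaction, the log2 change in TG minus that in WT. Because sex differs with treatment, an interaction of genotype with DSS cannot be told apart from one of genotype with sex. The edgeR count was 0 of 8, with 3 genes at an unadjusted p under 0.05. It was 1 in DESeq2 (Tnf) and 1 in limma on log2(FPKM + 1) (Il1a). By edgeR 0.846% of all genes passed (0.320% with the lower value in TG). Over all genes, 237 were higher and 188 lower in DESeq2, and 99 and 54 in limma. DESeq2 gave Il1a and Il1r2 no adjusted p here. Tnf rose by 2.74 in WT and 1.43 in TG on the log2 scale, a difference of -1.31 (95% interval -2.00 to -0.61, adjusted p = 0.105 in edgeR and 0.0129 in DESeq2). Over 18 alternatives its difference ran from -1.56 to -1.07 and its adjusted p from 0.0129 to 0.339. Il1rn rose by 0.80 in WT and 1.42 in TG, a difference of 0.62 (0.02 to 1.22, adjusted p = 0.396), and Il1r2 differed by -3.11 (-6.07 to -0.14, adjusted p = 0.391) on few counts. For Il18 the difference was 0.07 (-0.54 to 0.67) and for Il1b -0.86 (-2.08 to 0.35). The Il1a difference of -1.63 had an adjusted p of 0.522 in edgeR and 0.024 in limma on log2(FPKM + 1), where it was -0.63. The comparisons of DSS with untreated tissue and of TG with WT share libraries, so they are not independent of one another.

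Genes around the ligands were followed through 6 lists, of which 90 genes were tested: 33 were higher and 11 lower with DSS in WT, and 20 were higher and 1 lower in TG. For comparison, 10.2 and 9.62% of all genes were higher and lower in WT, and 3.33 and 2.15% in TG. Some of the 90, among them Nlrp3, Lcn2 and Mmp3, passed the low-count filter through the DSS libraries. Such genes could hardly have been called lower. Between TG and WT after DSS, 0 of the 90 passed in edgeR (5 higher and 9 lower at an unadjusted p under 0.05, and 1 lower in DESeq2). In untreated tissue 4 were higher and 2 lower in TG (2.26 and 1.44% of all genes).

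Of the other IL-1 family ligands, receptors and binding proteins, 8 genes were tested, with 2 higher and 2 lower in WT and 1 higher in TG. The list was searched by 18 symbols, some of which are older and newer symbols of the same IL-36 family genes. Of the IL-36 ligand genes, Il1f9, which encodes IL-36 gamma, was tested and stood at 1.02 ± 0.283 CPM in untreated WT and 2.14 ± 1.57 after DSS (adjusted p = 0.217). Il18bp, whose secreted product binds and neutralises IL-18, stood at 5.35 ± 2.07 CPM (SD, n = 3) in untreated WT and 36.1 ± 7.68 (n = 2) after DSS, and at 7 ± 0.806 and 25.2 ± 2.33 in TG. It rose 6.73-fold in WT (log2 2.75 ± 0.26, adjusted p = 0.000192) and 3.6-fold in TG (1.85 ± 0.26, adjusted p = 0.0031), and it passed without each of the 10 libraries. The IL-18 receptor genes Il18r1 and Il18rap did not pass between untreated genotypes by edgeR. Their TG libraries lay below the WT ones, at 0.656 to 1.49 against 2.35 to 3.57 CPM and 0.298 to 0.869 against 1.47 to 3.15 CPM. This was so for 15.4% of all genes. Of the list, 3 genes were lower there at an unadjusted p under 0.05 and 1 in DESeq2. With DSS both receptor genes fell in WT, Il18r1 from 2.79 ± 0.676 to 0.947 ± 0.499 CPM (adjusted p = 0.0431) and Il18rap from 2.09 ± 0.924 to 0.501 ± 0.208 CPM (0.0244). In the same comparison 6 of 7 T cell markers were lower, and the list summed to 104 to 200 CPM in untreated WT and 35.4 to 48.3 after DSS. The part of these markers in the receptor values was not tested. Il1rl1, the IL-33 receptor gene, rose from 1.07 ± 0.527 to 3.44 ± 2.65 CPM (adjusted p = 0.048). Those 3 calls held in 4, 7 and 2 of the 10 fits without a library, and the WT counts of this list fell to 1 higher without WT untreated 1, 2 or 3, TG untreated 2 or 3, WT DSS 1, TG DSS 1 or TG DSS 2, and to 0 lower without WT untreated 2 or WT DSS 2.

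Of the IL-1 and IL-18 processing genes, 15 of 19 were tested, with 7 higher and 1 lower in WT and 5 higher in TG. Nlrp3, an inflammasome sensor, had 6 counts in untreated WT and 87 after DSS (pooled ratio 20.5, 95% counting interval 9.05 to 57.4, adjusted p = 0.00221), and 5 and 29 in TG (8.46, 3.24 to 28). Pycard, the inflammasome adaptor, rose from 158 ± 9.27 to 262 ± 22.4 CPM in WT (1.65-fold, adjusted p = 0.00406). Gsdmd, which forms the pores through which IL-1 beta leaves the cell, rose 1.58-fold in WT (149 ± 9.5 to 236 ± 33.4 CPM, adjusted p = 0.00526) and 2.05-fold in TG (128 ± 2.41 to 262 ± 25 CPM, adjusted p = 0.000929). P2rx7, the ATP-gated channel that triggers NLRP3, fell in WT from 18.7 ± 4.87 to 6.96 ± 0.601 CPM (adjusted p = 0.00565), and this call ended without WT DSS 2 (0.0532). In the same comparison 6 of 7 T cell and 2 of 4 pan-leukocyte markers were lower. Their part in the P2rx7 value was not tested. The other rises were Casp8, Capn2, Nlrp1a and Casp4 in WT, and Capn2, Pycard, Nlrp1a and Nlrp3 in TG. Capn2, the large subunit of a calpain protease, was lower in untreated TG than in WT (69.7 ± 2.55 against 95.5 ± 1.98 CPM, adjusted p = 0.0239), a call that ended without any 1 of the 3 WT untreated libraries or without TG untreated 2 or 3. The number higher in WT was 3 or 4 without any 1 of the WT untreated or WT DSS libraries. In TG it was 2 without TG untreated 2 or 3 or either TG DSS library, and 3 without WT untreated 1 or 2.

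Of the genes of IL-1 receptor signalling all 17 were tested, with 1 higher and 3 lower in WT (10.2 and 9.62% of all genes) and 0 passing in TG (1 higher and 3 lower at an unadjusted p under 0.05, 0 in DESeq2). Irak2, a kinase of the receptor complex, fell from 55.3 ± 2.91 to 37.5 ± 6.57 CPM in WT (adjusted p = 0.0167), a call that ended without WT untreated 3 or WT DSS 2. Irak4, the first kinase of the complex, rose 1.29-fold (adjusted p = 0.045), and Ikbkg and Tab1 fell, and these 3 held in 2, 5 and 3 of the 10 fits without a library. In TG, 3 genes of the list were lower without TG untreated 1.

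Of the TNF processing, receptor and signalling genes, 17 of 18 were tested, with 5 higher and 4 lower in WT and 3 higher and 1 lower in TG. Tnfrsf1b, which encodes TNFR2, stood at 31.6 ± 3.44 CPM in untreated WT and 99.1 ± 10.4 after DSS (3.13-fold, adjusted p = 6.44e-05), and at 48.6 ± 3.15 and 77.4 ± 4.39 CPM in TG (1.59-fold, adjusted p = 0.0131). The necroptosis genes Ripk3 and Mlkl rose 2.83-fold and 2.53-fold in WT (adjusted p = 0.000467 and 0.000321) and 2.19-fold and 1.60-fold in TG (0.00443 and 0.0224). Traf1, a TNF receptor adaptor, fell from 16.2 ± 1.83 to 4.52 ± 1.2 CPM in WT (log2 -1.84, adjusted p = 0.000544) and from 9.93 ± 0.79 to 5.04 ± 0.831 CPM in TG (log2 -0.98, adjusted p = 0.0244). The others were Birc3 and Tnfrsf1a, which rose in WT, and Timp3, Rhbdf1 and Ltb, which fell there. In WT 6 of 7 T cell and 2 of 4 pan-leukocyte markers were lower too, and in TG 0 of either list passed. The T cell list still summed to 45.9, 99.7 and 130 CPM in TG untreated 1, 2 and 3, and to 41.4 and 41.5 in TG after DSS. For the pan-leukocyte list these sums were 54.3, 141 and 209 CPM, and 63.9 and 59.7. The lowest untreated sums are those of TG untreated 1, which stands apart. The part of these markers in the values of Traf1 and Ltb was not tested. The WT calls of Tnfrsf1b, Ripk3, Mlkl and Traf1 held without each of the 10 libraries. In TG the number higher was 1 without TG DSS 1, 0 without TG DSS 2 and 5 without TG untreated 1, and the Traf1 call ended without TG untreated 2 or 3 or either TG DSS library. In untreated tissue Tnfrsf1b was higher in TG (1.54-fold, adjusted p = 0.0211) and Timp3, an inhibitor of ADAM17, was lower (14.3 ± 0.111 CPM in WT and 6.18 ± 0.936 in TG, adjusted p = 0.0106). The first of these ended without any 1 of the WT untreated libraries or TG untreated 2 or 3, and the second without WT untreated 3 (0.0509).

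Of 12 NF-kappaB subunits and inhibitors, 3 were higher and 1 lower in WT and 0 passed in TG (1 higher and 1 lower at an unadjusted p under 0.05, 0 in DESeq2). Nfkbia, the inhibitor that NF-kappaB itself induces, rose 2.17-fold in WT (115 ± 18.8 to 250 ± 18.3 CPM, adjusted p = 0.001), a call that held without each of the 10 libraries. Bcl3, a co-activator of the family, rose 2.18-fold (adjusted p = 0.0149) and Nfkb2, a subunit gene, 1.43-fold (0.0257), while Tnip1, an inhibitor, fell from 134 ± 13.0 to 83.3 ± 7.44 CPM (0.0212). The number higher was 1 without WT untreated 3 or either WT DSS library, and Tnip1 did not pass without WT untreated 2 or WT DSS 2. In untreated tissue Nfkbia was higher in TG (174 ± 14.7 CPM, 1.51-fold, adjusted p = 0.0366), which held in 4 of the 10 fits without a library and did not hold under total count scaling.

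Of 28 genes that IL-1 and TNF are known to induce, 21 were tested, and 15 were higher and 0 lower with DSS in WT (17 higher and 0 lower at an unadjusted p under 0.05, 16 and 0 in DESeq2). In TG 11 were higher and 0 lower (14 and 0 unadjusted, 10 and 0 in DESeq2). The list's median log2 fold change was 2.40 in WT and 1.69 in TG. The TG number was 5 without TG DSS 1 and 7 without TG DSS 2. Nos2, inducible nitric oxide synthase, stood at 3.96 ± 2.75 CPM in untreated WT and 81.6 ± 11.2 after DSS (20.5-fold, adjusted p = 0.000266), and at 4.06 ± 1.26 and 56.0 ± 3.82 CPM in TG (13.8-fold, adjusted p = 0.00119). Cxcl5, a neutrophil chemokine, rose 23.0-fold in WT (adjusted p = 0.000126) and 8.03-fold in TG (0.00277). Cxcl2, another neutrophil chemokine, had 6 counts in untreated WT and 455 after DSS (pooled ratio 107, 95% counting interval 48.9 to 294), and 30 and 230 in TG (11.2, 7.63 to 17.0). Lcn2, an iron-withholding defence protein, had 2 counts in untreated WT and 111 after DSS (78.5, 21.2 to 656), and 6 and 60 in TG (14.6, 6.33 to 41.3). These 4 genes passed in both genotypes without each of the 10 libraries. Mmp3, a matrix metalloproteinase, had 0 counts in all 6 untreated libraries and was at least 12.3-fold higher in WT and 27.2-fold higher in TG after DSS, taking 3 counts per group as the floor. The medians were the same with Mmp3 at these bounds. Lcn2, Mmp3, Mmp9, Mmp13, Ptgs2 and Ccl7 stood at 0.472 CPM or less in every untreated library. They passed the low-count filter through the DSS libraries and could hardly have been called lower. This limits what the list's counts of higher and lower and its medians show. Icam1 and Vcam1, which encode adhesion molecules, the superoxide dismutase gene Sod2 and the transcription factor gene Irf1 did not pass in either genotype, and Il6, Csf2, Csf3 and Ccl2 were too low to test. In untreated tissue Ier3 (12.3 ± 1.97 CPM in WT, 21.8 ± 1.58 in TG, adjusted p = 0.0146) and Zc3h12a (52.4 ± 6.54 and 84.9 ± 15.1 CPM, adjusted p = 0.0466) were higher in TG, in 7 and 3 of the 10 fits without a library.

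**Figure D4:**
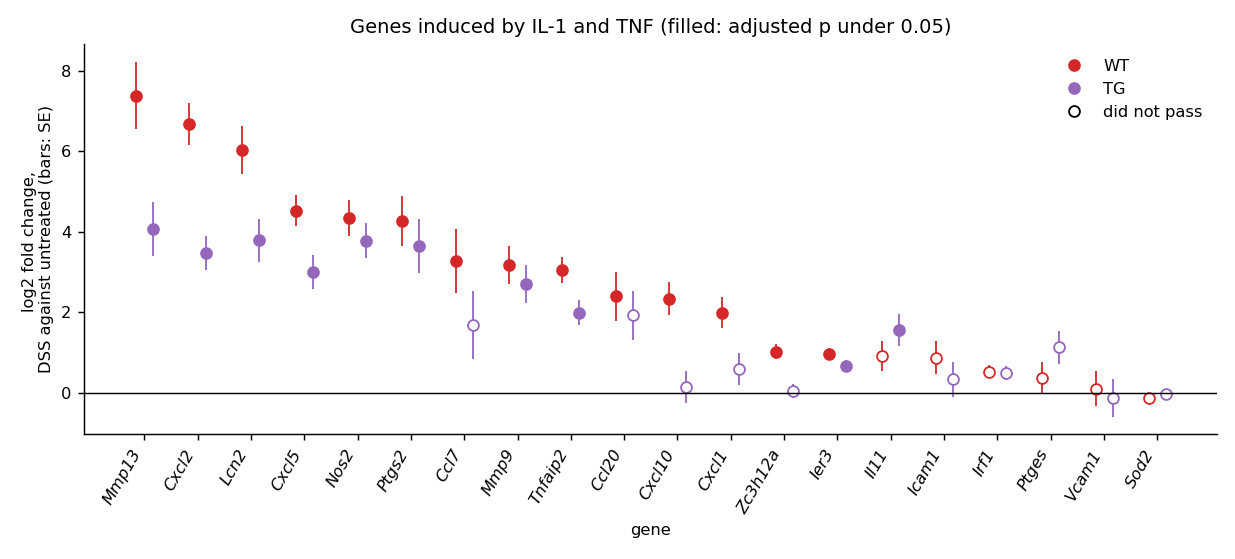
Log2 fold change of DSS against untreated (vertical axis, bars are SE) for 20 of the 21 tested genes known to be induced by IL-1 and TNF, in WT and TG. Filled points passed at an adjusted p under 0.05. Mmp3, with 0 counts in untreated tissue, is left out, and values of genes with few counts, such as Mmp13 with 1 count in untreated WT, depend on the prior count of the fit.

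The 8 genes followed one another to different degrees over the 10 libraries, which share the step from untreated to DSS. Pearson's r of log2 CPM was 0.96 between Il1b and Il18, 0.95 between Il1b and Tnf, 0.94 between Il1a and Il1b and 0.66 between Il1rn and Tnf, and Il1r1 was below 0 with each of the others (-0.45 to -0.79). The genes nearest to Il1b were Csf3r, the G-CSF receptor gene of neutrophils (r = 0.99), Trim40 (0.99) and Rs5-8s1 (0.98). Those nearest to Tnf were Cxcl2 (0.98), the surface antigen gene Ly6a (0.98) and S100a8 (0.97). Il18 was nearest to Golm1 (0.98), to Xist (0.98), which marks the sex of the DSS libraries, and to the mucin gene Muc13 (0.98). Il1rn was nearest to Capn2 (0.98), 4732471J01Rik (0.97) and 9530082P21Rik (0.97), and Il33 to Ano6 (0.96), Ripk3 (0.94) and Aatf (0.94). Il1a was nearest to D730005E14Rik (0.97), Mgam (0.96) and Gsap (0.96). Il1r1 was nearest to BC016579 (0.95), the collagen gene Col16a1 (0.94) and Trabd2b (0.93), and Il1r2 to BC030870 (0.99), Ccdc59 (0.97) and Casp8 (0.97). The ranking took in 12735 or 12736 genes that averaged at least 1 CPM, and these values are descriptions over 10 libraries of 4 groups.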

How the data were processed

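Poly-A RNA of mouse intestinal tissue was sequenced on a BGISEQ-500 in 10 libraries. Per the submitters' processing notes the tools were HISAT2 2.0.4, Bowtie2 2.2.5 and RSEM 1.2.12 with mm10, whose roles are not given in the sources used here. For each library the authors deposited the expected count (an estimated read count), FPKM and length of every gene listed, the lowest FPKM being 0.01. A gene not listed in a library was set to 0. After rounding the expected counts, low genes were dropped by edgeR's filterByExpr (at least 10 counts, total of at least 15), and TMM gave the scaling (edgeR 4.0.16, R 4.3.3). The quasi-likelihood fit used all 10 libraries with the 4 group means as its terms, leaving 6 residual degrees of freedom, and the coefficient of variation between libraries was 0.171. The SE was obtained from the log2 fold change and its F statistic. CPM is the rounded count over the TMM-scaled library. Depth was 15393859 to 18284704 expected counts.

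The 8 genes and the gene lists were chosen with earlier results of these data known. Named are all 8 genes, up to 4 passing genes of lowest p per list and contrast, less some given by name only, and the 3 genes nearest to each of the 8 by Pearson's r (prior count 2). Il1f9 and the genes named as examples of those that did not pass were chosen after their values were seen. Alternatives were DESeq2 1.42.0, DESeq2 size factors, total count scaling, no filter, fits of the compared groups, the replicate number as a block, limma 3.58.1 on log2(FPKM + 1), filtered or not, and log2(FPKM + 0.1), and fits without each library. With total count scaling in place of TMM, the numbers of all genes higher and lower were 235 and 382 in untreated TG against WT (318 and 202 with TMM), 6 and 1 after DSS (25 and 1), 1146 and 1700 with DSS in WT (1434 and 1354), and 413 and 402 in TG (468 and 303).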

Additional observations from a re-analysis of the deposited data

Results flagged for a closer look

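Among the genes of TNF processing, receptors and signalling, 2 differed between the genotypes in their response to DSS by the edgeR interaction test. In this test too, DSS and sex cannot be told apart. Timp3 stood at 14.4, 14.3 and 14.2 CPM in the WT libraries without DSS, at 5.13, 6.91 and 6.51 in the TG ones, 4.43 and 3.62 in WT after DSS and 6.27 and 4.39 in TG after DSS, and its log2 change with DSS was 1.62 higher in TG than in WT (SE 0.30, adjusted p = 0.0406). Tnfrsf1b stood at 31.8, 35.0 and 28.1 CPM in the WT libraries without DSS, at 47.6, 46.1 and 52.1 in the TG ones, 106 and 91.7 in WT after DSS and 74.3 and 80.5 in TG after DSS, a difference of -0.97 (SE 0.18, adjusted p = 0.0406). In both genes the untreated genotypes did not overlap. These calls held in 2 and 1 of the 10 fits without a library, with adjusted p up to 0.196 and 0.223. Over all genes 0.846% passed this test.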

How the results depend on the processing

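The numbers of the 8 genes that passed kept within 1.5 times in the alternative fits except as follows. Between untreated TG and WT, 1 gene (Tnf) was higher in DESeq2 and 0 were lower with the replicate block. After DSS, 1 (Il1a) was lower in TG in limma on log2(FPKM + 1), filtered or not. In the interaction, 1 was lower in DESeq2 (Tnf) and 1 in limma on log2(FPKM + 1), filtered or not (Il1a). Leaving out 1 library at a time, the number lower in untreated TG ran from 0 to 1, the number lower with DSS in WT from 0 to 1 (Il1r1 without WT DSS 1) and the number higher with DSS in TG from 3 to 5.

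The replicate numbers are not known to pair the libraries. Deviations of same-numbered WT and TG libraries correlated at 0.083, -0.013 and -0.19 untreated and at 0.21 after DSS, where 2 libraries per group make each pair mirror the other. Same-numbered DSS and untreated libraries correlated at -0.011 and -0.089 in WT and -0.29 and -0.22 in TG. The untreated libraries did not each correlate best with their own number. With the replicate block 7 genes were higher with DSS in WT and 5 in TG, and Il1rn in untreated tissue had an adjusted p of 0.0769.

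In the comparison of untreated genotypes, signs turned where the value was near 0. In untreated tissue, Il1a turned from 0.01 to -0.067 with total count scaling, -0.0028 without a filter, -0.012 with the replicate block, -0.00038 in limma with a pseudocount of 1, filtered or not, and -0.015 with 0.1. Il33 turned from 0.05 to -0.034 with total count scaling, -0.010 in limma with a pseudocount of 1, filtered or not, and -0.026 with 0.1. Without 1 library, untreated Il1a ran from -0.68 to 0.26, Il33 from -0.14 to 0.31 and Il1r1 from -0.17 to 0.033. After DSS the values were further from 0, at -0.18 for Il1rn, -0.27 for Il1r1 and -0.15 for Il18. They turned without WT DSS 1. There Il1rn ran from -0.42 to 0.11, Il1r1 from -0.57 to 0.10 and Il18 from -0.37 to 0.10. In the interaction Il1r1 (-0.22 with all libraries) ran from -0.52 to 0.16 and Il18 (0.07) from -0.15 to 0.32. The cause was not tested. Fits of only the compared groups dropped Il1a from the comparison of untreated genotypes and from that of DSS in TG, and Il1r2 from the former, and DESeq2 gave no adjusted p for these 2 genes after DSS or in the interaction. Depth limits Il1a, Il1r2, Il1b and Il33 in untreated tissue, with 0 to 18 counts per library.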
